A study of Mus musculus with 9 samples.

Results

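The control vector of this series, an adeno-associated virus that carries green fluorescent protein (AAV-GFP), was compared with saline in mouse calf muscle. The members of the comparison were the 6 libraries whose titles name AAV-GFP or saline, 3 of each, out of 9 libraries in all. Every library came from the gastrocnemius of wild-type FVB mice that were 2 to 3 months old, and the muscle was collected 7 weeks after it had received saline or AAV-GFP. The other 3 libraries came from muscle given AAV-GFP-MBNL1∆, a vector for a decoy RNA-binding protein. They entered the tests given here through the spread between libraries, the filter that chose the tested genes and the scaling. With the 6 libraries alone 18030 genes were tested, against 18514 with all 9. AAV-GFP was the study's control for that vector, so its difference from saline holds what injection of a vector with a reporter protein was accompanied by. The labels used here give no serotype, dose, promoter or sex and do not say whether each library is 1 animal, so p-values reflect only how far these libraries spread, which may be technical. The GFP transcript was not analysed here.

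Adeno-associated virus is a small virus with a DNA genome, used to carry genes into muscle fibres, where its genome mostly persists outside the chromosomes. Cells can sense viral nucleic acid through Toll-like receptors and cytosolic sensors, which leads to type I interferon, and T cells and natural killer cells make interferon-gamma. Both interferons act through receptors on the cell surface to induce antiviral effectors, chemokines and the MHC molecules that show peptides to T cells. Muscle fibres themselves carry little MHC class I at rest, and capsid or transgene peptides shown on them are a known target of cytotoxic T cells.

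Libraries held 44603618 to 76970849 counts on genes, the fewest in AAV-GFP 3. The 3 saline libraries lay close to each other: 28, 11 and 43 of 18514 tested genes stood more than 2-fold above the saline mean in saline 1, 2 and 3. AAV-GFP 1, 2 and 3 had 1414, 2844 and 604 such genes, and 95, 706 and 146 genes more than 2-fold below. The median SD of log2 CPM (CPM is a gene's count relative to the scaled library size) over all tested genes was 0.126 in saline and 0.253 in AAV-GFP. AAV-GFP 2 stood apart from the other 8 libraries in the share of its counts that the 10 most abundant genes took, 17.7% against 23.6% to 27.7%. The muscle label was met by Acta1, at 27002 to 29058 CPM in saline and 16856 to 24691 CPM in AAV-GFP. The X-inactivation transcript Xist lay between 105 and 136 CPM in all 6 libraries, while the Y-linked Eif2s3y was at 0 in 5 of them and at 1.11 CPM in AAV-GFP 1. Some genes that muscle uses, among them Cox4i1 and Cpt1b, were listed at 0 in every library, and a gene listed at 0 is therefore named and read no further.

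With edgeR's quasi-likelihood test, adjusted over 18514 genes, 0 genes were higher and 0 lower in AAV-GFP (0% in each direction), and the smallest adjusted p was 0.0841. At an unadjusted p under 0.05 there were 2889 higher and 1176 lower genes, 15.6% and 6.35% of those tested. DESeq2 called 1629 higher and 91 lower genes (8.8% and 0.492%). The limma-voom fit called 0 in either direction, and limma-voom with quality weights, which give less weight to libraries that spread more, called 3078 and 2386 (16.6% and 12.9%). Without AAV-GFP 3, edgeR called 2907 higher and 355 lower genes (15.3% and 1.86%), and without AAV-GFP 2 it called 5 higher (0.0268%) and 0 lower. Those 5 were Il12b, Cd7, Trem2, Spp1 and Oas1a. Since no gene passed in the edgeR fit on all libraries, the values below describe the libraries, and each comparison is read from the values themselves and from whether the groups overlap.

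**Figure D1:**
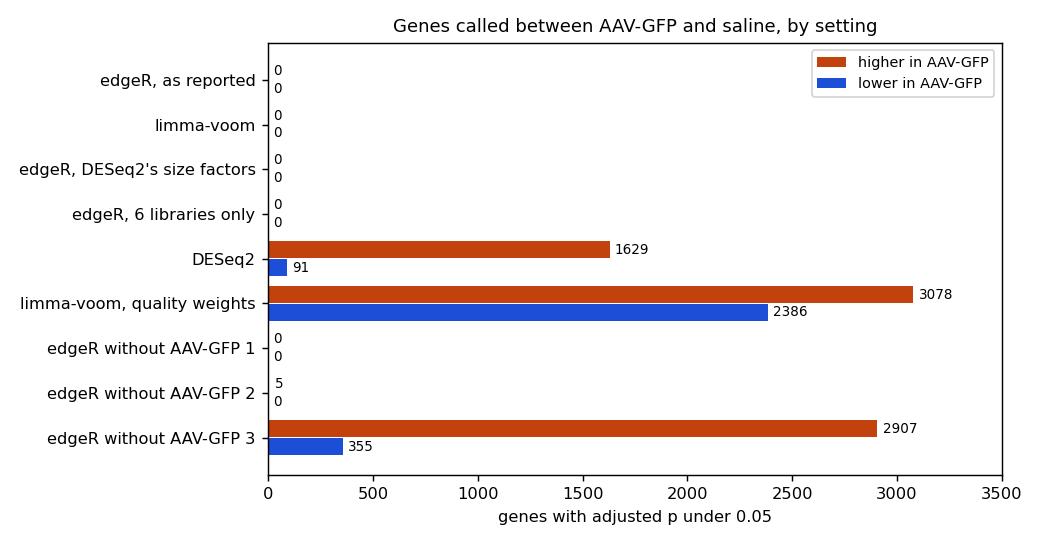
Genes with an adjusted p under 0.05 between AAV-GFP and saline (x axis, number of genes) under 9 settings (y axis), in orange for genes higher and in blue for genes lower in AAV-GFP. The count was 0 in both directions with edgeR and with limma-voom, 1629 and 91 with DESeq2, and 2907 and 355 with edgeR when AAV-GFP 3 was left out.

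All 3 AAV-GFP libraries stood above all 3 saline libraries in 2717 genes, 14.7% of those tested, and below them in 2292, 12.4%. These shares are the background for every count of list members given here. A gene with at most 3 saline counts passed the filter through other libraries and could hardly stand below saline. Such genes were 5 of 12 tested antibody chain genes and 3 of 22 T-cell genes. They were also 3 of 19 chemokine ligands, 3 of 18 cytotoxic genes and 3 of 20 checkpoint genes, so the counts of these lists are partly set by the filter. The same holds in part for other lists with members of few saline counts, such as the chemokine receptors. Among the 2717 genes above, AAV-GFP 2 was the farthest from saline in 93.7% and AAV-GFP 3 the nearest in 79.5%. Among the 2292 genes below, AAV-GFP 2 was the farthest in 83.7%, and the nearest was AAV-GFP 3 in 62.0% and AAV-GFP 1 in 32.3%. The order AAV-GFP 2, AAV-GFP 1, AAV-GFP 3 thus recurred through most of the genes above saline, although the 3 libraries carry the same label. It was less regular among the genes below.

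**Figure D2:**
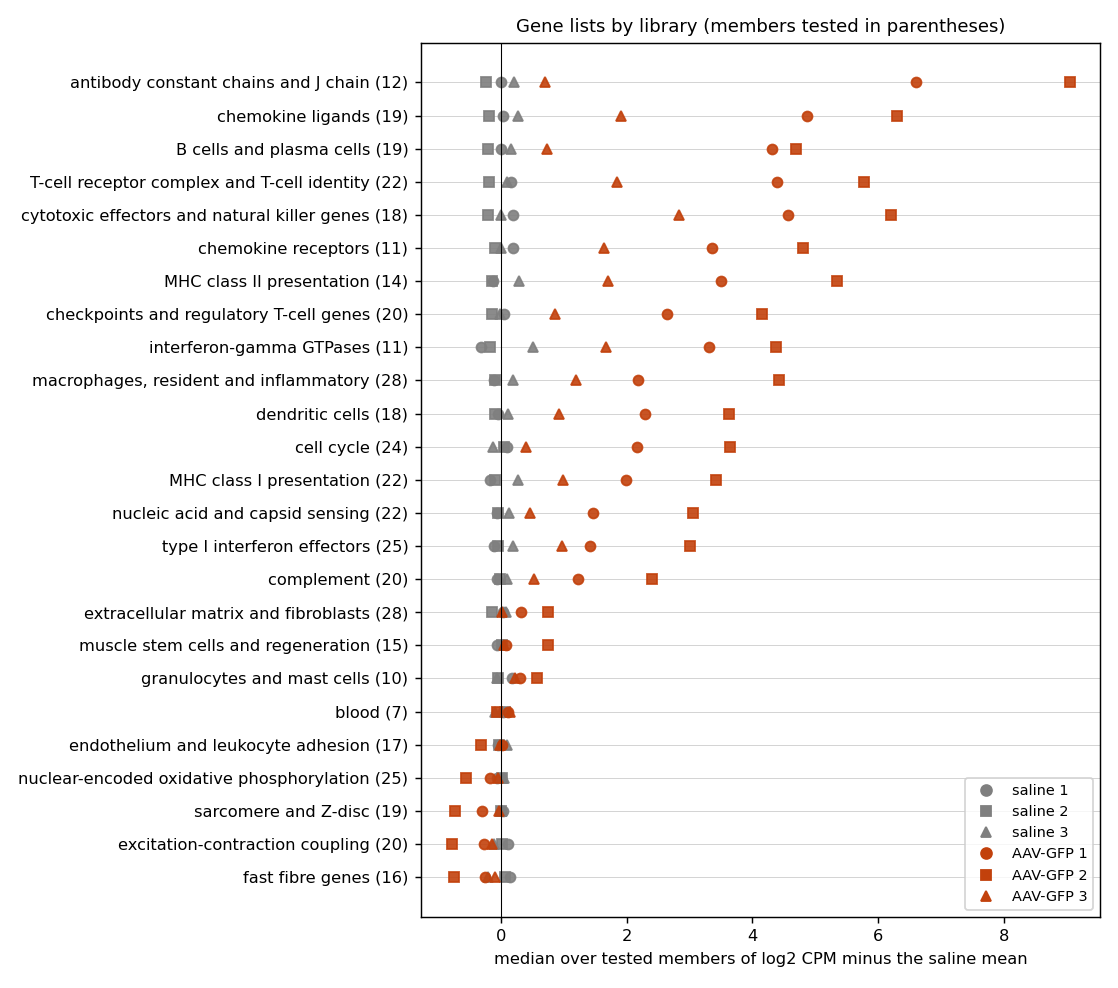
Median over the tested members of 25 gene lists (y axis, members tested in parentheses) of the difference from the saline mean in log2 CPM (x axis), 1 symbol per library, with saline in grey and AAV-GFP in orange. The AAV-GFP libraries lie in the order 3, 1, 2 from left to right in every list above blood, and the muscle lists at the bottom lie lowest in AAV-GFP 2.

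Genes of nucleic acid and capsid sensing, Tlr1 and Tlr2 among them, stood above saline as a group in every AAV-GFP library. In this list, 19 of 22 tested members had all AAV-GFP libraries above saline, against 14.7% of all genes, and 0 had them all below. The median log2 fold change of the list was 2.08, where that of all tested genes was −0.01. Zbp1, a sensor of Z-form nucleic acid that can start necroptosis, was at 0.318, 0.257 and 0.572 CPM in saline 1, 2 and 3 and 14.2, 52.9 and 3.43 CPM in AAV-GFP 1, 2 and 3. Every AAV-GFP value lay above every saline value, and the log2 fold change was 5.93 (SE 1.06, adjusted p = 0.0841). Tlr9, the endosomal receptor for unmethylated DNA that is known to sense AAV genomes, was at 0.231, 0.257 and 0.442 CPM in saline 1, 2 and 3 and 2.76, 7.5 and 0.642 CPM in AAV-GFP 1, 2 and 3. Ifih1, a cytosolic sensor of double-stranded RNA, was at 4.13, 4.85 and 5.25 CPM in saline 1, 2 and 3 and 13, 26.6 and 8.17 CPM in AAV-GFP 1, 2 and 3. For both, AAV-GFP 3 was the nearest to saline and still above it. Unc93b1, which brings endosomal Toll-like receptors to their compartment, was at 8.66, 8.42 and 9.58 CPM in the saline libraries and 34.3, 120.3 and 13.7 CPM in the AAV-GFP libraries. Mavs, the adaptor of the RNA sensors, was at 50.3, 52.9 and 71.8 CPM in saline 1, 2 and 3 and 54.1, 39.7 and 62.5 CPM in AAV-GFP 1, 2 and 3, with overlapping groups. Cgas, the cytosolic DNA sensor, was above saline in AAV-GFP 1 and 2 but at 0.664 CPM in AAV-GFP 3 against 0.863 to 0.91 CPM in saline. Myd88, the adaptor of most Toll-like receptors, was listed at 0 throughout.

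The interferons themselves were scarce and their signalling genes were higher. Ifng, which codes for interferon-gamma, was at 0.0289, 0.0151 and 0 CPM in saline 1, 2 and 3 and 0.534, 1.82 and 0.111 CPM in AAV-GFP 1, 2 and 3, a total of 3 counts in saline against 187. The ratio at equal depth was 68.6, with an exact 95% interval of 23.1 to 336 that covers counting error only. The type I interferon genes Ifnb1 and Ifna4 were listed at 0. Of 18 tested genes of interferon signalling, 13 stood above saline in all 3 libraries and 0 below. Irf9, which gives the type I complex its DNA-binding part, was at 6.94, 7.69 and 11.3 CPM in saline 1, 2 and 3 and 25.7, 35.9 and 17.9 CPM in AAV-GFP 1, 2 and 3 (log2 fold change 1.62, SE 0.27, adjusted p = 0.0841). Its lowest AAV-GFP value was above the highest saline value. Socs1, a feedback inhibitor of the receptor kinases, was at 0.476, 0.469 and 0.871 CPM in saline 1, 2 and 3 and 4.29, 9.86 and 1.68 CPM in AAV-GFP 1, 2 and 3. The receptor chain Ifngr2 was at 106, 86.5 and 97.3 CPM in saline 1, 2 and 3 and 85.7, 68.7 and 104 CPM in AAV-GFP 1, 2 and 3, and overlapped. Exons of Ifng overlap those of another gene over 25.9% of their length, so reads of that neighbour may be counted with it or lost.

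Antiviral effectors that type I interferon induces stood above saline in nearly the whole list, and the GTPases that interferon-gamma induces in all of it. Of 25 tested effectors 24 had no overlap, the exception being Trim30a, and the list median was 2.14. Ifit1, which binds viral RNA that lacks a host cap, was at 1.36, 1.11 and 1.55 CPM in saline 1, 2 and 3 and 5.55, 13 and 3.72 CPM in AAV-GFP 1, 2 and 3. Oas1a, an activator of RNA decay by RNase L, was at 0.678, 0.606 and 0.858 CPM in saline 1, 2 and 3 and 3.14, 10.1 and 2.48 CPM in AAV-GFP 1, 2 and 3, and its adjusted p was 0.0841 with all libraries and 0.0459 without AAV-GFP 2. Isg15, a ubiquitin-like protein, was at 0.592, 0.5 and 0.676 CPM in saline 1, 2 and 3 and 1.9, 6 and 1.57 CPM in AAV-GFP 1, 2 and 3. These 3 effectors were between 2-fold and 4-fold above the saline mean in AAV-GFP 3. The GTPases were further from saline. All 11 that were tested had no overlap, at a list median of 3.48; the other 7 of the 18 listed had few or no counts. Irgm2, of the IRG family that acts on membranes around intracellular pathogens, was at 28.8, 13.1 and 33 CPM in saline 1, 2 and 3 and 494, 678 and 123 CPM in AAV-GFP 1, 2 and 3. Iigp1, of the same family, was at 8.33, 11.2 and 31.8 CPM in saline 1, 2 and 3 and 779, 1402 and 158 CPM in AAV-GFP 1, 2 and 3. Gbp2, a guanylate-binding protein, was at 12.4, 16 and 23.1 CPM in saline 1, 2 and 3 and 106, 276 and 43.7 CPM in AAV-GFP 1, 2 and 3. Members of both GTPase families and of the Ifit, Oas and Mx families share sequence, so reads may be split between copies.

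The promoters of these GTPases are shown because every one that could be looked up held the same short motif. In the 250 bases before the RefSeq start (GRCm38.p6), the core of the interferon-stimulated response element (GAAA, 2 bases of any kind, GAAA, or on the other strand TTTC, 2 bases of any kind, TTTC) was found in 8 of 8 GTPases with an entry, in 10 of 19 type I effectors and in 3.38% of 12141 tested genes with an entry. TTCNNNGAA, the core of the gamma-activated site, which reads the same on both strands and can overlap the first motif, was found in 4 of 8, in 5 of 19 and in 7.18%. Both motifs and the 9 lists searched were chosen with the results known. Of the others, chemokine ligands held the first motif in 2 of 12, MHC class I genes in 2 of 19, MHC class II genes in 1 of 9 and fast fibre genes in 0 of 11. Stretches around the matches follow, 5′ to 3′ on the gene's own strand, with the matches to either motif in capitals; each stretch shows the response element match nearest the start, and the gamma-activated site matches of Gbp5 and 1 of the 2 in Gbp7 lie outside it.
Gbp2, chr3:142620589-142620628, plus strand: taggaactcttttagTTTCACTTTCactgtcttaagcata
Gbp2b, chr3:142594695-142594734, plus strand: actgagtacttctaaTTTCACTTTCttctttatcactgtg
Gbp3, chr3:142559984-142560029, plus strand: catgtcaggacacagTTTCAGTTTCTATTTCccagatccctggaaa
Gbp5, chr3:142496754-142496793, plus strand: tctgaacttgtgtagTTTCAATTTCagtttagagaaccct
Gbp7, chr3:142530234-142530307, plus strand: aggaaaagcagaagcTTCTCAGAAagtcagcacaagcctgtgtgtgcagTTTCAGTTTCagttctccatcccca
Irgm1, chr11:48871421-48871465, minus strand: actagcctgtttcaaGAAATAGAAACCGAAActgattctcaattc
Irgm2, chr11:58214887-58214937, plus strand: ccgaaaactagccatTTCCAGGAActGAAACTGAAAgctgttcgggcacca
Tgtp2, chr11:49064258-49064308, minus strand: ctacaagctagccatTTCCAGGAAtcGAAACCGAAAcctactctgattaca
Isg15, chr4:156200860-156200911, minus strand: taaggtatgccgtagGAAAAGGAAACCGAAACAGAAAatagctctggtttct
Cxcl10, chr5:92349078-92349117, minus strand: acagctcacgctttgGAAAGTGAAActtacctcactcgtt
In the IRG genes Irgm2 and Tgtp2 the 2 motifs lie side by side, 2 bases apart, and the match lies 14 bases before the start in Irgm1 and 203 bases before it in Cxcl10. The Gbp genes printed lie together on chromosome 3. Isg15 and Cxcl10 were picked as an effector and a chemokine after the matches were seen. A match is a run of letters and says nothing of binding, and a window without one says only that the letters are not there.

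Chemokines were among the genes farthest from saline. Of 19 tested ligands 14 stood above saline in all 3 libraries, at a list median of 5.56 (5.51 with genes of at most 3 saline counts set to 3 counts). Cxcl9 (chromosome 5, 92321347 to 92328079, mm10), which interferon-gamma induces and which binds Cxcr3 on activated T cells, was at 0.534, 0.121 and 0.182 CPM in saline 1, 2 and 3 and 88.2, 296 and 14.2 CPM in AAV-GFP 1, 2 and 3. AAV-GFP 1, 2 and 3 were thus 316, 1062 and 50.9 times the saline mean, and the log2 fold change was 8.89 (SE 1.36, adjusted p = 0.0841, and 0.00157 without AAV-GFP 3). Cxcl10, a second ligand of Cxcr3, was at 0.115, 0.151 and 0.078 CPM in saline 1, 2 and 3 and 16.7, 30.6 and 3.32 CPM in AAV-GFP 1, 2 and 3 (log2 fold change 7.19, SE 0.98, adjusted p = 0.0841). Both lay far outside the saline range in AAV-GFP 3 too. Ccl5, which attracts T cells, was at 0.0433, 0.0151 and 0.078 CPM in saline 1, 2 and 3 and 7.7, 29.7 and 1.28 CPM in AAV-GFP 1, 2 and 3. Ccl8, a macrophage product that attracts monocytes and lymphocytes, was at 0.159, 0.242 and 0.624 CPM in saline 1, 2 and 3 and 37.3, 187 and 4.76 CPM in AAV-GFP 1, 2 and 3. Ccl3 had 1 count in saline and 843 in AAV-GFP, a ratio at equal depth of 928 with an exact 95% interval of 166 to 36684. Per kilobase of exon, Ccl8 had the highest mean level in AAV-GFP of these ligands, 149 CPM per kilobase, followed by Cxcl9 with 44.1, Ccl5 with 13.4 and Cxcl10 with 7.48, and the ranges of their 3 libraries overlap. Other ligands of the list lay between these values, such as Cxcl12 with 20.9 and Cxcl13 with 20.4. Cxcl12, a ligand that stroma makes at all times, was at 176, 169 and 230.5 CPM in saline 1, 2 and 3 and 183, 149 and 181 CPM in AAV-GFP 1, 2 and 3, and the groups overlapped.

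Receptors for these ligands stood above saline in 11 of 11 tested genes. Of these, Cxcr5, Ccr6 and Cxcr6 had only 4, 3 and 14 counts over the saline group. Such genes passed the filter through other libraries, so this count is partly set by the filter. Cxcr3 was at 0.173, 0.0606 and 0.039 CPM in saline 1, 2 and 3 and 3.47, 8.2 and 0.62 CPM in AAV-GFP 1, 2 and 3. Ccr2, which brings monocytes out of the blood, was at 3.36, 3.85 and 4.36 CPM in saline 1, 2 and 3 and 35.8, 108 and 10.2 CPM in AAV-GFP 1, 2 and 3. In both, AAV-GFP 3 was the lowest of its group and above saline. Cxcr5 and Ccr7, which guide lymphocytes inside lymphoid tissue, were at 1.45, 2.02 and 0.266 CPM and 1.1, 2.73 and 0.465 CPM in AAV-GFP 1, 2 and 3, against at most 0.0289 and 0.13 CPM in saline. Among cytokines 10 of 18 tested genes stood above saline, at a list median of 1.80. Il12b, a subunit of interleukin 12 and 23 that dendritic cells and macrophages make, was at 0, 0 and 0.013 CPM in saline 1, 2 and 3 and 0.741, 1.4 and 0.288 CPM in AAV-GFP 1, 2 and 3. That is 1 count in saline against 175, a ratio of 193 with an exact 95% interval of 34.1 to 7649, and its adjusted p was 0.0841 with all libraries and 0.0459 without AAV-GFP 2. Il1b was at 0.0866, 0.0606 and 0.169 CPM in saline 1, 2 and 3 and 2.36, 7.03 and 0.398 CPM in AAV-GFP 1, 2 and 3, while Il34, a ligand of the macrophage receptor Csf1r, was at 9.28, 8.9 and 8.27 CPM in saline 1, 2 and 3 and 9.52, 8.97 and 9.1 CPM in AAV-GFP 1, 2 and 3. Il6 was at 0.222, 0.499 and 0.0443 CPM in AAV-GFP against 0.0303 to 0.117 CPM in saline, with AAV-GFP 3 inside the saline range.

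**Figure D3:**
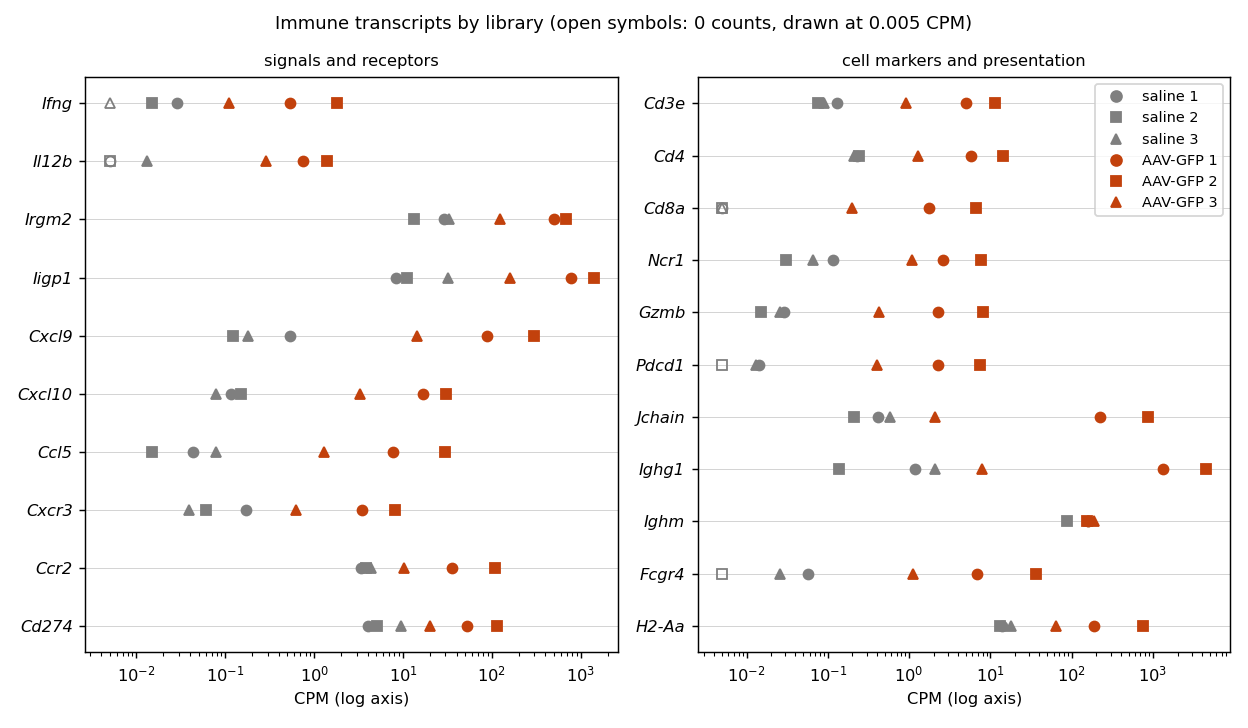
CPM on a log axis (x) of 21 immune genes (y), 1 symbol per library, with saline in grey and AAV-GFP in orange and open symbols for 0 counts. In each gene but Ighm the AAV-GFP libraries lie to the right of saline, in the order AAV-GFP 3, 1 and 2, and Ighm lies between 88.3 and 189.6 CPM in all 6.

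T-cell transcripts stood above saline in 20 of 22 tested genes, at a list median of 5.04. The libraries stood 4.39, 5.78 and 1.84 above the saline mean as list medians in log2 CPM. Cd3e, a chain of the T-cell receptor complex, was at 0.13, 0.0757 and 0.091 CPM in saline 1, 2 and 3 and 5.03, 11.5 and 0.908 CPM in AAV-GFP 1, 2 and 3 (log2 fold change 5.86, SE 0.97, adjusted p = 0.0841). Cd4, of helper T cells, was at 0.231, 0.242 and 0.208 CPM in saline 1, 2 and 3 and 5.72, 14.1 and 1.28 CPM in AAV-GFP 1, 2 and 3. Cd8a, of cytotoxic T cells, had no count in saline and was at 1.78, 6.59 and 0.199 CPM in AAV-GFP 1, 2 and 3. Cd8a was thus at least 241-fold higher over the group, with 3 saline counts as the floor, and its 9 counts in AAV-GFP 3 are few. The count of Cd8a per count of Cd4 was 0.311 (exact 95% interval 0.251 to 0.383) in AAV-GFP 1, 0.467 (0.42 to 0.518) in AAV-GFP 2 and 0.155 (0.0676 to 0.315) in AAV-GFP 3, so the interval of AAV-GFP 2 lay above those of the other two; this ratio and the others below were chosen after values were seen. Cd28, a costimulatory receptor, was at 9.33, 6.59 and 8.86 CPM in saline 1, 2 and 3 and 9.36, 9.5 and 9.5 CPM in AAV-GFP 1, 2 and 3 and barely separated. In bulk tissue, more cells of a type and more RNA per cell cannot be told apart.

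Cytotoxic and natural killer genes stood above saline in 17 of 18 tested members, at a list median of 5.84 (5.76 with low genes set to 3 saline counts). Ncr1, through which natural killer cells are activated, was at 0.115, 0.0303 and 0.065 CPM in saline 1, 2 and 3 and 2.64, 7.62 and 1.08 CPM in AAV-GFP 1, 2 and 3. Gzmb, the protease of cytotoxic granules, was at 0.0289, 0.0151 and 0.026 CPM in saline 1, 2 and 3 and 2.27, 8.2 and 0.421 CPM in AAV-GFP 1, 2 and 3. Prf1, which forms the pore through which granzymes enter, was at 0.0289, 0.0909 and 0.013 CPM in saline 1, 2 and 3 and 2.49, 12 and 0.62 CPM in AAV-GFP 1, 2 and 3. All 3 stood far above saline in every AAV-GFP library, Ncr1 at 15.4 times the saline mean in AAV-GFP 3, the lowest of its group. Gzmm was the member that stood below saline, at 16.4, 17.1 and 16.6 CPM in saline 1, 2 and 3 and 13.1, 9.11 and 16.1 CPM in AAV-GFP 1, 2 and 3 (log2 fold change −0.39, adjusted p = 0.228). Genes of checkpoints and regulatory T cells stood above saline in 15 of 20. Pdcd1, which codes for the inhibitory receptor PD-1, was at 0.0144, 0 and 0.013 CPM in saline 1, 2 and 3 and 2.24, 7.45 and 0.398 CPM in AAV-GFP 1, 2 and 3, 2 counts in saline against 767 and a ratio of 422 (exact 95% interval 116 to 3491). Cd274, which codes for its ligand PD-L1 and which many cells make under interferon, was at 4, 5.06 and 9.44 CPM in saline 1, 2 and 3 and 52.8, 113 and 20 CPM in AAV-GFP 1, 2 and 3 (log2 fold change 3.33, SE 0.67, adjusted p = 0.0841). Per count of Cd3e, Pdcd1 had 0.445 counts (0.365 to 0.541) in AAV-GFP 1, 0.646 (0.582 to 0.717) in AAV-GFP 2 and 0.439 (0.237 to 0.781) in AAV-GFP 3. Foxp3, the factor of regulatory T cells, was at 0.173, 0.424 and 0.104 CPM in saline 1, 2 and 3 and 0.89, 3.17 and 0.244 CPM in AAV-GFP 1, 2 and 3, with AAV-GFP 3 inside the saline range; its exons overlap another gene over 31.5% of their length.

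Antibody genes differed more among the AAV-GFP libraries than any other list in the plot of lists. Antibody constant chains and J chain stood 6.59, 9.04 and 0.70 above the saline mean as list medians in AAV-GFP 1, 2 and 3. Ighg1 (chromosome 12, 113325240 to 113330523, mm10), the constant chain of IgG1, was at 1.18, 0.136 and 2.09 CPM in saline 1, 2 and 3 and 1307, 4508 and 7.81 CPM in AAV-GFP 1, 2 and 3. In AAV-GFP 1 and 2 it was 1148 and 3962 times the saline mean and in AAV-GFP 3 6.87 times. Jchain, which joins secreted IgA and IgM into polymers, was at 0.419, 0.212 and 0.585 CPM in saline 1, 2 and 3 and 225, 870.0 and 2.08 CPM in AAV-GFP 1, 2 and 3. Ighm, the constant chain of IgM, was at 158, 88.3 and 158 CPM in saline 1, 2 and 3 and 157, 155 and 189.6 CPM in AAV-GFP 1, 2 and 3, with overlapping groups (log2 fold change 0.31, SE 0.22, adjusted p = 0.403). The count of Ighg1 per count of Ighm was therefore 8.32 (exact 95% interval 8.15 to 8.49), 29 (28.5 to 29.6) and 0.0412 (0.037 to 0.0459) in the 3 libraries. Of 12 tested members 5 had at most 3 saline counts and could hardly stand below saline. In all, 8 of the 12 stood above it. The lambda chains Iglc1, Iglc2 and Iglc3 had counts in AAV-GFP 1 and 2 and 0 in AAV-GFP 3 and in saline. The median log2 fold change was 10.45, and 9.12 with genes of at most 3 saline counts set to 3. Constant chains of the IgG classes are similar, so their shares of the reads are uncertain. Pou2af1, a coactivator of antibody genes, was at 0.0289, 0.0454 and 0.065 CPM in saline 1, 2 and 3 and 15, 50 and 0.199 CPM in AAV-GFP 1, 2 and 3, and the plasma-cell factor Bhlha15 at 1.87, 8.84 and 0.0443 CPM in AAV-GFP against 1 count in saline. Jchain had 60.7 counts per count of Cd79a (53.5 to 69) in AAV-GFP 1, 86.8 (81 to 93.2) in AAV-GFP 2 and 11.8 (5.72 to 28) in AAV-GFP 3, the last from 8 counts of Cd79a. Of 10 markers of lymph node stroma and follicles 3 had enough counts to test, and they stood 2.40, 2.74 and 0.72 from the saline mean as a list in AAV-GFP 1, 2 and 3. Cr2, a complement receptor of B cells and follicular dendritic cells, was at 0.0289, 0.0303 and 0.026 CPM in saline 1, 2 and 3 and 0.356, 0.561 and 0.0664 CPM in AAV-GFP 1, 2 and 3, above saline in each library. Fcer2a, a receptor for IgE on the same cells, was at 0.0722, 0.0757 and 0.065 CPM in saline 1, 2 and 3 and 0.504, 0.648 and 0.0221 CPM in AAV-GFP 1, 2 and 3, with AAV-GFP 3 below saline. Glycam1 and Madcam1, of the vessels through which lymphocytes enter nodes, had at most 1 count in any of the 6 libraries, and their part and that of the other members in the B-cell values was not tested.

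Macrophage genes stood above saline in 25 of 28 tested members, at a list median of 3.28. Adgre1, the F4/80 antigen, was at 3.97, 3.94 and 5.7 CPM in saline 1, 2 and 3 and 23.5, 95.3 and 8.72 CPM in AAV-GFP 1, 2 and 3. Fcgr4, an activating receptor for IgG on inflammatory monocytes and macrophages, was at 0.0577, 0 and 0.026 CPM in saline 1, 2 and 3 and 6.85, 36.3 and 1.11 CPM in AAV-GFP 1, 2 and 3 (adjusted p = 0.0841). Trem2, a lipid receptor of tissue macrophages, was at 0.476, 0.409 and 0.572 CPM in saline 1, 2 and 3 and 2, 12.8 and 1.82 CPM in AAV-GFP 1, 2 and 3. Per count of Adgre1, Fcgr4 had 0.291 counts (exact 95% interval 0.262 to 0.323) in AAV-GFP 1, 0.381 (0.365 to 0.397) in AAV-GFP 2 and 0.127 (0.0926 to 0.171) in AAV-GFP 3. Gpnmb, of lysosome-rich macrophages, did not follow the order of the other members. It was at 5.93, 6.13 and 8.39 CPM in saline 1, 2 and 3 and 9.44, 37.1 and 40.3 CPM in AAV-GFP 1, 2 and 3, highest in AAV-GFP 3. Lyve1 and Cd163, of macrophages that reside along vessels, were nearer to saline, at 14.1, 18 and 13.4 CPM and 15.6, 26.7 and 7.68 CPM in AAV-GFP against 9.09 to 13.2 and 8.47 to 9.96 CPM, and Cd163 overlapped. Of 18 tested dendritic-cell genes 13 stood above saline, at a list median of 2.81. Xcr1 and Clec9a, of the dendritic cells that cross-present antigen to CD8 T cells, were at 2.34, 4.67 and 0.93 CPM and 1.33, 3.81 and 0.819 CPM against 0.257 to 0.299 and 0.257 to 0.303 CPM in saline. Zbtb46, of conventional dendritic cells, overlapped between groups at a log2 fold change of 0.12. Mast-cell genes overlapped as well, with Cma1 at 3.44, 2.32 and 2.33 CPM in saline 1, 2 and 3 and 3.31, 3.35 and 2.7 CPM in AAV-GFP 1, 2 and 3. The neutrophil gene S100a8 was at 0.163, 0.823 and 0.111 CPM against 0.0289 to 0.091 CPM, and Ly6g at 0.0374 CPM in AAV-GFP 2 and 0 in AAV-GFP 1 and 3. Of 10 tested genes of granulocytes and mast cells 3 stood above saline and 0 below, at a list median of 0.31. Csf3r, of the same list, was at 6.18, 21.3 and 1.44 CPM in AAV-GFP 1, 2 and 3 against 0.332 to 0.39 CPM in saline.

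Antigen presentation stood above saline by both routes. For MHC class I, 21 of 22 tested genes had no overlap, at a list median of 2.49, the exception being the chaperone Canx. B2m, the light chain of every class I molecule, was at 96.3, 106 and 126 CPM in saline 1, 2 and 3 and 549, 1457 and 224 CPM in AAV-GFP 1, 2 and 3. Nlrc5, the activator of class I genes, was at 2.22, 3.06 and 5.71 CPM in saline 1, 2 and 3 and 34, 77.5 and 12.1 CPM in AAV-GFP 1, 2 and 3. Psmb8, a catalytic subunit of the immunoproteasome, was at 5.63, 5.72 and 9.78 CPM in saline 1, 2 and 3 and 46.3, 153 and 18.7 CPM in AAV-GFP 1, 2 and 3. All 3 genes kept the order AAV-GFP 2, 1, 3, and B2m was 5.02, 13.3 and 2.05 times the saline mean in AAV-GFP 1, 2 and 3. For MHC class II, 13 of 14 had no overlap, at a list median of 4.33. Ciita, the activator of class II genes, was at 0.823, 0.757 and 1.13 CPM in saline 1, 2 and 3 and 17.9, 73.4 and 4.67 CPM in AAV-GFP 1, 2 and 3 (log2 fold change 5.14, SE 0.99, adjusted p = 0.0841). H2-Aa, a class II chain, was at 13.7, 13.1 and 17.7 CPM in saline 1, 2 and 3 and 187, 749 and 63.2 CPM in AAV-GFP 1, 2 and 3. Cd74, the invariant chain, was at 28.2, 26.9 and 38.8 CPM in saline 1, 2 and 3 and 415, 1738 and 137 CPM in AAV-GFP 1, 2 and 3. H2-Eb2 was at 0 in saline and at 1.82, 4.46 and 0.155 CPM, at least 179-fold higher over the group with 3 counts as the floor. H2 genes share sequence and their alleles differ between strains, so counts of single H2 genes are uncertain.

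Complement genes stood above saline in most of their list. Of 20 tested genes 13 stood above saline and 0 below, at a list median of 1.58. C1qa, a chain of the recognition protein C1q that macrophages make, was at 12.8, 12.8 and 15.8 CPM in saline 1, 2 and 3 and 64.6, 249 and 28.8 CPM in AAV-GFP 1, 2 and 3. C3, the central component, was at 67.9, 65 and 71.2 CPM in saline 1, 2 and 3 and 294, 661 and 125 CPM in AAV-GFP 1, 2 and 3. C4b was at 61.4, 157 and 21.1 CPM against 7.82 to 11.4 CPM. Cd55, a regulator on the cell membrane, was at 102, 102 and 95.1 CPM in saline 1, 2 and 3 and 88, 79 and 107 CPM in AAV-GFP 1, 2 and 3. Genes of inflammasomes and cell death stood above saline in 12 of 17, among them Casp1 at 1.57, 1.89 and 1.65 CPM in saline 1, 2 and 3 and 7.28, 23.1 and 3.25 CPM in AAV-GFP 1, 2 and 3 and Gsdmd, which forms the pore of pyroptosis, at 11.1, 27.9 and 6.38 CPM against 4.29 to 5.07 CPM. Bax was at 3.29, 3.48 and 4.32 CPM in saline 1, 2 and 3 and 4.43, 7.37 and 4.07 CPM in AAV-GFP 1, 2 and 3 and overlapped. Cell cycle genes stood above saline in 15 of 24, at a list median of 2.71 and at 2.16, 3.64 and 0.39 above the saline mean in AAV-GFP 1, 2 and 3. Mki67, a proliferation marker, was at 1.31, 0.909 and 0.858 CPM in saline 1, 2 and 3 and 14.7, 38.4 and 1.7 CPM in AAV-GFP 1, 2 and 3. In AAV-GFP 3 it was 1.66 times the saline mean, a small step beside the 14.3 and 37.4 times of AAV-GFP 1 and 2.

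Vessel genes stood on both sides of saline. Vcam1, the adhesion molecule that holds lymphocytes and monocytes to activated endothelium, was at 6.02, 4.91 and 5.96 CPM in saline 1, 2 and 3 and 17.8, 38.6 and 7.15 CPM in AAV-GFP 1, 2 and 3, and Icam1, a second such molecule, at 5.76, 6.45 and 7.68 CPM in saline 1, 2 and 3 and 20.7, 46.6 and 9.61 CPM in AAV-GFP 1, 2 and 3. Both stood above saline in every AAV-GFP library. Cdh5, the cadherin of endothelial junctions, was at 107, 106 and 104 CPM in saline 1, 2 and 3 and 95.6, 65.5 and 88.2 CPM in AAV-GFP 1, 2 and 3, below saline in each library and lowest in AAV-GFP 2 (log2 fold change −0.34, SE 0.15, adjusted p = 0.216). Aqp1, a water channel of capillaries, was at 264, 267 and 237 CPM in saline 1, 2 and 3 and 215, 148 and 217 CPM in AAV-GFP 1, 2 and 3. Of 17 tested genes of endothelium and adhesion 5 stood above and 4 below, against 14.7% and 12.4% of all genes, and the list median was −0.12. Gpihbp1, which holds lipoprotein lipase on capillaries, was at 19.2, 19.4 and 19.9 CPM in saline and 15.5, 13.6 and 16.5 CPM in AAV-GFP. Pecam1 was at 115, 117 and 114 CPM in saline 1, 2 and 3 and 116, 92.9 and 108 CPM in AAV-GFP 1, 2 and 3, with overlap. Among smooth muscle and pericyte genes 0 of 11 stood above and 2 below, with Pdgfrb at 56.3, 52.7 and 57.2 CPM in saline 1, 2 and 3 and 51.1, 44.2 and 48.2 CPM in AAV-GFP 1, 2 and 3.

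Matrix genes were mostly within the saline range in AAV-GFP 3 and above it in AAV-GFP 2. Of 28 tested genes 3 stood above saline in all libraries (Mmp12, Mmp14 and Timp1), against 14.7% of all genes, and the list stood 0.32, 0.74 and 0.02 from the saline mean in AAV-GFP 1, 2 and 3. Timp1, an inhibitor of matrix proteases, was at 0.52, 0.621 and 1.47 CPM in saline 1, 2 and 3 and 6.42, 34.8 and 1.62 CPM in AAV-GFP 1, 2 and 3. Mmp12, the elastase of macrophages, was at 0.967, 0.121 and 0.195 CPM in saline 1, 2 and 3 and 2.15, 7.09 and 9.41 CPM in AAV-GFP 1, 2 and 3, with AAV-GFP 3 the highest, as for Gpnmb. Col1a1 and Col3a1, of fibrillar collagen, were at 488, 434 and 252 CPM and 476, 1196 and 317 CPM in AAV-GFP against 199.8 to 340.2 and 210.2 to 334 CPM in saline. Their log2 fold changes of 0.52 and 1.21 had SE of 0.28 and 0.45, and both genes overlapped between groups. Pdgfra, of resident fibroblasts, was at 41.6, 41.2 and 36 CPM in saline 1, 2 and 3 and 43.6, 65.1 and 33.1 CPM in AAV-GFP 1, 2 and 3.

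Several genes of regenerating and denervated fibres stood high in AAV-GFP 2, while the shares of their lists without overlap were near those of all genes. The list of muscle stem cells and regeneration stood 0.08, 0.74 and 0.06 from the saline mean in AAV-GFP 1, 2 and 3. The denervation list stood at −0.13, 0.37 and −0.03. Myh3, the embryonic myosin of newly formed fibres, was at 4.66, 4 and 6.19 CPM in saline 1, 2 and 3 and 6.08, 36.9 and 5.62 CPM in AAV-GFP 1, 2 and 3. Mymk, which fuses myoblasts, was at 0.419, 0.197 and 0.312 CPM in saline 1, 2 and 3 and 0.815, 6.76 and 0.398 CPM in AAV-GFP 1, 2 and 3. Chrng, the fetal subunit of the acetylcholine receptor that returns when a fibre loses its nerve, was at 0.26, 0.545 and 0.416 CPM in saline 1, 2 and 3 and 0.741, 4.35 and 0.376 CPM in AAV-GFP 1, 2 and 3. In each of these 3 genes AAV-GFP 2 was the one high value, AAV-GFP 3 lay within the saline range, and AAV-GFP 1 lay within it for Myh3 and above it for Mymk and Chrng. Ngfr, a neurotrophin receptor of Schwann cells without axon contact, was at 1.23, 1.41 and 1.03 CPM in saline 1, 2 and 3 and 1.23, 10.4 and 0.996 CPM in AAV-GFP 1, 2 and 3, again with AAV-GFP 2 alone high. The Schwann-cell list it belongs to did not follow it: 2 of 11 tested genes stood above saline (Cnp and Egr2) and 0 below, the median was −0.17, and the list was lowest in AAV-GFP 2, at −0.16, −0.45 and 0.13 from the saline mean in AAV-GFP 1, 2 and 3. Of 15 tested genes of muscle stem cells and regeneration 2 stood above saline (Vim and Myl4) and 1 below (Pax7), and of 15 genes of denervation 2 above (Runx1 and Chrna1) and 2 below (Hdac4 and Agrn), against 14.7% above and 12.4% below of all genes. Vim, an intermediate filament of young fibres and of many mononuclear cells, was at 170.4, 208 and 208 CPM in saline 1, 2 and 3 and 324, 711 and 250.0 CPM in AAV-GFP 1, 2 and 3. Runx1, which denervated fibres and blood cells both express, was at 6.25, 5.98 and 6.35 CPM in saline 1, 2 and 3 and 22, 48.7 and 8.88 CPM in AAV-GFP 1, 2 and 3 (adjusted p = 0.0932). Both stood above saline in each AAV-GFP library and furthest in AAV-GFP 2. Pax7, the factor of satellite cells, was at 1.41, 1.82 and 1.91 CPM in saline 1, 2 and 3 and 1.23, 1.33 and 1.04 CPM in AAV-GFP 1, 2 and 3, lower in each AAV-GFP library (log2 fold change −0.51, SE 0.19, adjusted p = 0.181). Myod1 was at 29.9, 25.8 and 28.4 CPM in saline 1, 2 and 3 and 28.6, 26.6 and 27 CPM in AAV-GFP 1, 2 and 3 and did not separate the groups. AAV-GFP 2 is also the library with the lowest share of counts in the top 10 genes and the highest immune lists, and the part of these in its values was not tested.

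**Figure D4:**
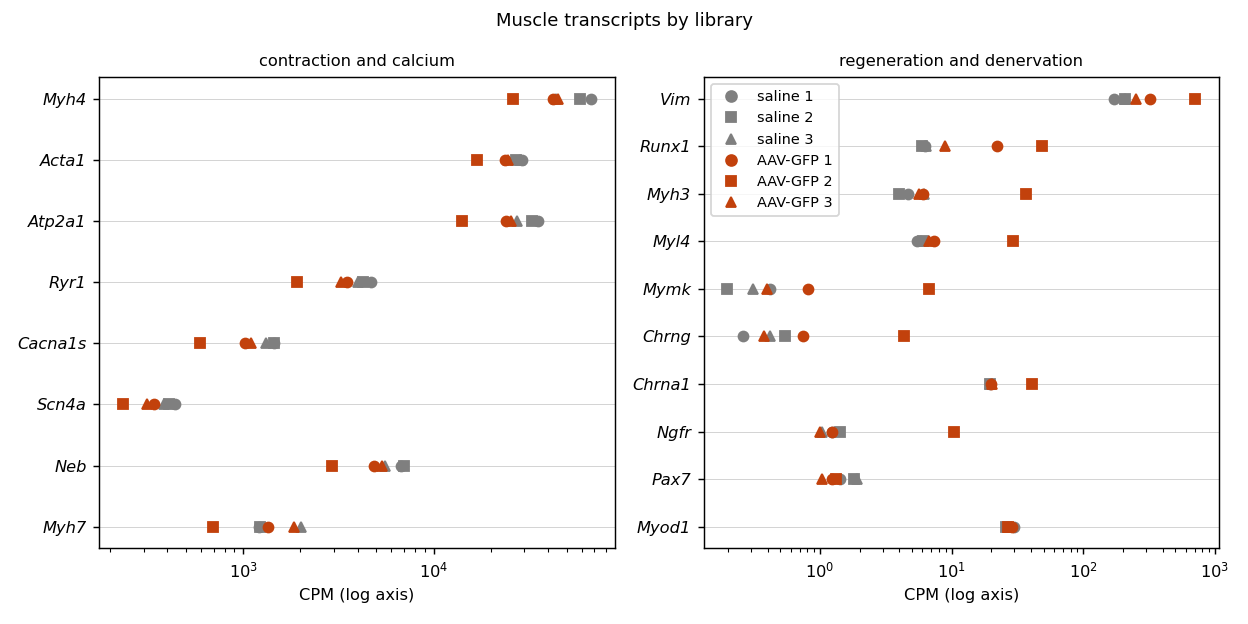
CPM on a log axis (x) of 8 genes of contraction and calcium handling (left) and 10 genes of regeneration and denervation (right), 1 symbol per library, with saline in grey and AAV-GFP in orange. AAV-GFP 2 is the lowest library in every gene on the left, and on the right it is the highest for Myh3, Mymk, Chrng and Ngfr, whose other AAV-GFP values lie at or close to saline.

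Genes of calcium handling and of the sarcomere stood below saline in a larger share than all genes did, and fibre-type genes in about the same share or not at all. Excitation-contraction coupling had 8 of 20 tested genes below saline in all 3 libraries and 0 above, against 12.4% and 14.7% of all genes, at a list median of −0.35. Cacna1s, the voltage sensor of the transverse tubule, was at 1444, 1444 and 1314 CPM in saline 1, 2 and 3 and 1027, 597 and 1104 CPM in AAV-GFP 1, 2 and 3 (log2 fold change −0.62, SE 0.23, adjusted p = 0.181). Scn4a, the sodium channel of the muscle action potential, was at 439, 408 and 385 CPM in saline 1, 2 and 3 and 339, 233 and 311 CPM in AAV-GFP 1, 2 and 3. Clcn1, the chloride channel that keeps the fibre from repetitive firing, was at 229, 222 and 206 CPM in saline 1, 2 and 3 and 163, 97.6 and 187 CPM in AAV-GFP 1, 2 and 3. In these 3 genes AAV-GFP 1 and 3 lay below the saline range and nearer to it than AAV-GFP 2. Of 19 sarcomere and Z-disc genes 5 stood below saline and 0 above, and of 16 fast fibre genes 2 below and 0 above. Myh4, the fastest myosin, was at 67315, 58795 and 43775 CPM in saline 1, 2 and 3 and 42231, 26053 and 45235 CPM in AAV-GFP 1, 2 and 3 and overlapped, since AAV-GFP 3 lay above saline 3. Slow fibre genes did not separate the groups in any of 12, with Myh7 at 1218, 1232 and 2010.3 CPM in saline 1, 2 and 3 and 1343, 691 and 1859.5 CPM in AAV-GFP 1, 2 and 3. As a list they stood at −0.73 in AAV-GFP 2, and at −0.28, −0.19 and 0.48 in saline 1, 2 and 3. Of the dystrophin complex and repair genes 5 of 16 stood below saline, among them Sgca at 131, 128 and 121 CPM in saline 1, 2 and 3 and 102, 78.5 and 116 CPM in AAV-GFP 1, 2 and 3. Anxa1 and Anxa2, which patch torn membranes and are also made by leukocytes, were the 2 that stood above, at 46.9, 98.6 and 42.8 CPM and 84.7, 195 and 79.8 CPM against 26.1 to 34.1 and 48.8 to 69.1 CPM.

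Atrophy genes stood below saline more often than above it, by small steps. Fbxo32, the ubiquitin ligase atrogin-1, was at 327, 287 and 282 CPM in saline 1, 2 and 3 and 262, 179 and 229.8 CPM in AAV-GFP 1, 2 and 3, below saline in each library (log2 fold change −0.42, SE 0.14, adjusted p = 0.161). Trim63, its partner ligase MuRF1, was at 191, 206 and 187 CPM in saline 1, 2 and 3 and 199, 202 and 186 CPM in AAV-GFP 1, 2 and 3, with overlap. Klf15, a glucocorticoid-induced factor, was at 36.2, 43.3 and 37.9 CPM in saline 1, 2 and 3 and 26.5, 19.6 and 33.1 CPM in AAV-GFP 1, 2 and 3. In all, 5 of 19 tested genes of atrophy and autophagy stood below saline and 1 above, against 12.4% and 14.7% of all genes, at a list median of −0.18. Among genes of energy supply, 10 of 25 nuclear-encoded genes of oxidative phosphorylation and 7 of 24 of glycolysis and glycogen stood below saline. Both shares were larger than the 12.4% of all genes. Of mitochondrially encoded mRNAs 2 of 13 stood below, close to that share, and of fatty acid oxidation genes 1 of 21, under it. In these lists 1 gene, of glycolysis and glycogen, stood above saline. Sdha, of complex II, was at 667, 743 and 661 CPM in saline 1, 2 and 3 and 588, 407 and 609.8 CPM in AAV-GFP 1, 2 and 3, and Pygm, the muscle glycogen phosphorylase, at 7519, 7118 and 6094 CPM in saline 1, 2 and 3 and 5490.4, 3737 and 5859 CPM in AAV-GFP 1, 2 and 3. The lists of oxidative phosphorylation and glycolysis stood −0.17, −0.56 and −0.05 and −0.25, −0.55 and −0.08 from the saline mean in AAV-GFP 1, 2 and 3, so AAV-GFP 3 was close to 0 in both. CPM are shares of a library, and the part in these values of the larger share of other transcripts in AAV-GFP 2 was not tested.

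Genes of the unfolded protein response stood above saline in 6 of 21, among them Edem1, of endoplasmic reticulum degradation, at 17.1, 15.2 and 16.5 CPM in saline 1, 2 and 3 and 55.7, 144 and 17.5 CPM in AAV-GFP 1, 2 and 3. Sdf2l1, a partner of the chaperone BiP, was at 2.71, 2.63 and 4.07 CPM in saline 1, 2 and 3 and 9.85, 28.5 and 3.81 CPM in AAV-GFP 1, 2 and 3, inside the saline range in AAV-GFP 3. Host genes of AAV entry had log2 fold changes of −0.21 to 0.25, at a list median of 0.01. Of 14, 1 stood above saline and 4 below, against 14.7% and 12.4% of all genes. The AAV receptor gene AU040320 (Aavr) was at 47.5, 46.1 and 44 CPM in saline 1, 2 and 3 and 42.5, 35.8 and 40.6 CPM in AAV-GFP 1, 2 and 3, a small step that was largest in AAV-GFP 2 (log2 fold change −0.21, SE 0.10, adjusted p = 0.258). Mbnl1 was at 583, 593 and 445 CPM in saline 1, 2 and 3 and 491, 356 and 461 CPM in AAV-GFP 1, 2 and 3, with overlap. Blood genes overlapped throughout, with Hbb-bs at 145, 146 and 119 CPM in saline 1, 2 and 3 and 147, 132 and 151 CPM in AAV-GFP 1, 2 and 3, as did those of adipocytes and tendon, 0 of 7, 0 of 10 and 0 of 8 tested genes separating the groups.

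Outside the lists, the rule for naming genes (12 protein-coding genes per direction by size and 12 by p, with groups that do not overlap) added genes of the same kinds above saline. Among those above saline were Serpina3f and Serpina3g, serine protease inhibitors that interferon induces, with Serpina3f at 0, 0 and 0.052 CPM in saline 1, 2 and 3 and 6.92, 34 and 1.62 CPM in AAV-GFP 1, 2 and 3. Acod1, which makes itaconate in activated macrophages, was at 2.54, 20.7 and 0.376 CPM against 3 counts in saline, a ratio of 679 (exact 95% interval 232 to 3294). Ubash3a and Skap1, adaptors of T-cell receptor signalling, were at 1.66, 3.75 and 0.576 CPM and 7.01, 15.4 and 1.88 CPM against 0.0303 to 0.0433 and 0.121 to 0.312 CPM. Among genes below saline the steps were small. Nt5c1a, a cytosolic nucleotidase that makes adenosine from AMP in muscle, was at 4.59, 4.65 and 3.21 CPM in saline 1, 2 and 3 and 2.55, 1.01 and 2.44 CPM in AAV-GFP 1, 2 and 3, the furthest below saline by size among genes with at least 1 CPM (log2 fold change −1.06, SE 0.34, adjusted p = 0.146). Csl, a relative of citrate synthase, had the smallest p, at 5.54, 5.16 and 5.79 CPM in saline 1, 2 and 3 and 3.93, 3.2 and 3.94 CPM in AAV-GFP 1, 2 and 3 (log2 fold change −0.58, SE 0.12, adjusted p = 0.0841). Syt3, Casr and Smad6 were at 3.37, 2.65 and 2.99, 7.18, 6.96 and 7.79 and 6.38, 5.48 and 6.97 CPM in AAV-GFP against 3.97 to 5.08, 8.78 to 13.6 and 8.01 to 8.57 CPM in saline.

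The AAV-GFP-MBNL1∆ libraries share the saline controls with AAV-GFP, and their values are set here beside those of AAV-GFP 3 without a test. Type I interferon effectors stood 0.98 above the saline mean in AAV-GFP 3 and 0.10, −0.01 and −0.37 from it in AAV-GFP-MBNL1∆ 1, 2 and 3. T-cell genes stood 1.84 above it in AAV-GFP 3 and 2.86, 3.15 and 2.09 above it in those libraries. Antibody constant chains stood 0.70 above it in AAV-GFP 3 and 5.14, 4.39 and 3.69 above it. The AAV-GFP library nearest to saline thus had higher interferon effectors, and lower T-cell genes and antibody chains, than those 3 libraries. Not every list split this way. MHC class II genes stood at 1.70 in AAV-GFP 3 and at 1.85, 2.00 and 0.94 in AAV-GFP-MBNL1∆ 1, 2 and 3. The AAV-GFP-MBNL1∆ libraries also carry Y-linked transcripts at a level the other 6 lack.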

How the data were processed

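Poly(A) RNA of mouse gastrocnemius was sequenced in 9 libraries. Per the labels' protocols, RNA was extracted with Trizol, treated with DNase and made into libraries from 250 ng with a KAPA mRNA kit. The deposited values are counts of reads per gene, 1 table per library. The submitters' processing notes name cutadapt 2.10, STAR 2.7.5a, HTSeq 0.12.4, DESeq2 1.30.0 and the build mm10; for the annotation release and strand setting, nothing is given in the sources used here. Reads of a gene and its antisense partner therefore cannot be told apart.

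Of the rows of each table, 55401 are genes and 5 are tallies of unassigned reads, which took 16.8% to 18.3% of reads and were left out. Gene IDs without version were matched to GENCODE mm10 names (55141 matched). Genes were filtered with filterByExpr, scaled by TMM, and tested with edgeR 4.0.16 (quasi-likelihood F test, robust, R 4.3.3) on all 9 libraries with 1 mean per group, which left 6 residual degrees of freedom. P-values were adjusted by Benjamini-Hochberg over 18514 genes at a threshold of 0.05. SE is the log2 fold change divided by the square root of F. CPM use the TMM library size. A list's value in a library is the median over tested members of log2 CPM (prior count 2) minus the saline mean. Intervals of count ratios are exact, at 95%, and cover counting error only; a fold against 0 counts uses a floor of 3 counts over the group. No 2 libraries of the same group agreed within sampling noise, and libraries of different groups were not compared in this way.

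Named genes were the lead genes of 45 lists, up to 4 further members per list by p, and per direction 12 by size and 12 by p among protein-coding genes with a mean of at least 1 CPM and no overlap; other members are given as values beside them, and a few genes are not reported here. Predicted gene models were left out of the last orders by a name pattern that was widened after values were seen. The genes, lists and comparisons were chosen with earlier results of these data known. Alternatives were other scalings, filters and tools (limma 3.58.1, DESeq2 1.42.0), a replicate block, the 6 libraries alone, and leaving out each library. Promoters (RefSeq, GRCm38.p6) were searched over 250 bases before the start.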

Additional observations from a re-analysis of the deposited data

How the results depend on the processing

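With all libraries edgeR called 0 genes higher and 0 lower, and so it did with DESeq2's size factors, with upper-quartile scaling, with no filter, with a stricter filter, without the robust option, without mitochondrial and the top 10 genes, on the 6 libraries alone, and with limma-voom. DESeq2 called 1629 higher and 91 lower genes, and limma-voom with quality weights 3078 and 2386. Leaving out 1 library at a time gave 0 to 2907 higher and 0 to 355 lower genes. Of the 9 libraries, only AAV-GFP 3 (2907 and 355 when omitted) and AAV-GFP 2 (5 and 0) gave counts above 0. On the 6 libraries alone, a choice made after seeing the data, leaving out AAV-GFP 3 gave 1819 higher and 25 lower genes and leaving out AAV-GFP 2 gave 1 and 0. The cause of these differences was not tested. With the replicate number as a block, edgeR called 99 higher and 0 lower genes, but same-numbered saline and AAV-GFP libraries did not deviate together (correlations of 0.073, −0.082 and −0.072), so the numbers pair nothing. Of the 2717 genes without overlap above saline, 1421 were among the 1629 of DESeq2 and 1839 among the 2907 without AAV-GFP 3.

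Other scalings moved the median of all genes by less than 0.1 on the log2 scale. The sign of a few small differences reversed. With limma-voom and quality weights the log2 fold change was 0.013 for Cxcl12, 0.037 for Myh7 and 0.041 for Myod1. Trim63 was at −0.00060 with DESeq2's size factors, −0.045 with upper-quartile scaling and −0.00053 with DESeq2. Leaving out a library gave −0.025 to 0.118 for Hbb-bs, −0.31 to 0.0085 for Mavs, −0.54 to 0.083 for Myh7, −0.094 to 0.012 for Myod1, −0.15 to 2.26 for Ngfr, −0.072 to 0.46 for Pdgfra, −0.041 to 0.051 for Trim63 and −0.17 to 0.051 for Xist. On the 6 libraries without AAV-GFP 2, Myh7 was at 0.11, Ngfr at −0.12, Pdgfra at −0.044 and Trim63 at −0.015, and without AAV-GFP 3 Xist was at 0.045.

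Depth limits the rarest transcripts: the floor of 3 counts equals 0.0141 CPM over the saline group. AAV-GFP 3, with the fewest counts, rests on under 10 counts for Cd8a, Cd79a, Pou2af1, Bhlha15, H2-Eb2, Ifng, Il6, S100a8, Cr2 and Fcer2a.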

Other observations

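The 5 genes that edgeR called without AAV-GFP 2 were chosen by that result, and their values are a description. Spp1, the matrix cytokine osteopontin that macrophages and injured fibres make, was at 2.6, 2.24 and 2.28 CPM in saline 1, 2 and 3 and 5.46, 19.3 and 5.31 CPM in AAV-GFP 1, 2 and 3. Cd7, a surface protein of T and natural killer cells, was at 0.0289, 0.0454 and 0.026 CPM in saline 1, 2 and 3 and 0.771, 1.91 and 0.421 CPM in AAV-GFP 1, 2 and 3. In both genes AAV-GFP 1 and 3 lay closer to each other than AAV-GFP 2 did to either.

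A few macrophage genes did not follow the order of the AAV-GFP libraries. AAV-GFP 3 was the farthest from saline in 102 of the 2717 genes without overlap above it (3.75%), and among them were Gpnmb and Mmp12, with log2 fold changes of 2.08 (SE 0.53) and 3.86 (SE 0.83). Both were singled out after their values were seen.

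Adipocyte genes varied within the groups more than between them. As a list they stood 0.59, 0.22 and −0.705 from the saline mean in saline 1, 2 and 3 and −0.16, −0.28 and 0.05 in AAV-GFP 1, 2 and 3. Skint5, of a family known from skin T-cell selection and outside every list, was at 0.361, 0.212 and 0.273 CPM in saline 1, 2 and 3 and 2.42, 3.8 and 0.974 CPM in AAV-GFP 1, 2 and 3, and all AAV-GFP values lay above saline.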
